A study of Mus musculus with 60 samples.

Results

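The 9 genes followed here, out of 35999 in the deposited table, carry the transport, coupling and metabolic tasks for which astrocytes are known: the glutamate transporters Slc1a2 and Slc1a3, the glutamine synthetase Glul, the connexins Gja1 and Gjb6, the water channel Aqp4, the potassium channel Kcnj10, the sodium pump subunit Atp1b2 and the folate enzyme Aldh1l1. They were chosen by name, with earlier results of these data known, and were read in all 20 groups of the study.

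The study asked how gene expression of glia changes over adult life and in a mouse model of amyloid plaques. Microglia and astrocytes were taken from whole brains of mice at 5 ages (2, 4, 6, 9 and 12 months), and the labels name 60 samples, 3 for each genotype, age and cell type. The wild-type (WT) mice were C57BL/6. The AD mice carried the APPswe/PS1-delta=E9 transgenes, which encode mutant human amyloid precursor protein and presenilin under the mouse prion protein promoter, so that amyloid arises from overexpression and mainly in neurons. All mice were perfused, and myelin was removed with Percoll and beads before sorting. Microglia were sorted by CD45 and CD11b and astrocytes by ACSA2, an antigen on the protein of Atp1b2, so that the difference of Atp1b2 between the cell types was set by the sort and is no finding.

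The authors deposited FPKM (sequenced fragments of a gene relative to its length and to the size of the library), 1 value per gene and group. The steps of these values gave back whole fragments of single libraries, 30 of astrocytes and 28 of microglia. WT 12-month and AD 4-month microglia held the steps of 2 libraries each, against 3 in the labels. Values of a gene in single libraries are called library values below. For 4 values this was not unique (Slc1a3 in WT 4-month and Glul in WT 6-month, WT 9-month and AD 12-month astrocytes), so there only the group value is given and no test was made. A gene rose or fell where limma on log2(FPKM + 0.1) gave an adjusted p under 0.05 (Benjamini-Hochberg over all genes tested) and a log2 fold change over 0.5, the study's fold threshold. The fold alone, on group values with no test, is given where it adds to the count. All adjusted p-values are from these limma fits, log2 fold changes stand with their standard error (SE), and the p-values measure only the spread between libraries, each from 1 brain by the study's methods.

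Every astrocyte group held the RNA of all 18 other astrocyte markers at 0.5 FPKM or more, with a summed level of 1497 to 3592 FPKM, against 21.1 to 163 in microglia. Astrocyte libraries also held 13 of 13 oligodendrocyte markers, summing to 13242 to 21548 FPKM, and endothelial markers at 475 to 3032, so the astrocyte fraction carried RNA of other cells throughout. Microglia markers summed to 14553 to 30639 FPKM in microglia and to 20.1 to 41.3 in astrocytes. Libraries of 6 months held fewer genes at 0.5 FPKM or more (12075 to 12882 in astrocytes, against 12650 to 13988 at the other ages). In such bulk samples fewer cells of a type and less RNA per cell cannot be told apart.

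As background, astrocytes take up the glutamate that neurons release through Slc1a2 and Slc1a3, driven by the sodium gradient that the pump keeps up, and Glul turns it into glutamine that goes back to neurons. Kcnj10 carries the potassium left behind by neuronal firing into the cell, Aqp4 lets water cross the endfeet that line blood vessels, and the connexins join astrocytes into a network through which ions and small molecules spread. Aldh1l1, an enzyme of folate metabolism, is used as a marker of astrocytes throughout the brain.

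Promoter sequences are shown for 4 members on which the results turn. These are the connexins, which rose together in WT mice, Kcnj10, which fell in WT and AD mice, and Slc1a2, which fell in AD mice. Relative to the other astrocyte markers, the rise of Gjb6 and the falls of Kcnj10 in AD mice did not pass the test. Slc1a2 was lower in WT mice too, at the age of the Kcnj10 fall, but only relative to those markers. Each sequence is the 250 bases before the start of the gene, from RefSeq on GRCm38.p6, and 7 of the 9 members had an entry. Capitals mark matches on either strand to 5 motifs: TATAAA (12.4% of 32851 promoters hold it), the AP-1 site TGAGTCA (4.46%), the NFI half-site TTGGC (41.5%), the SOX core ACAAT (27.7%) and the GC box GGGCGG (32.7%).
Gja1 (chr10:56377050-56377299, plus strand): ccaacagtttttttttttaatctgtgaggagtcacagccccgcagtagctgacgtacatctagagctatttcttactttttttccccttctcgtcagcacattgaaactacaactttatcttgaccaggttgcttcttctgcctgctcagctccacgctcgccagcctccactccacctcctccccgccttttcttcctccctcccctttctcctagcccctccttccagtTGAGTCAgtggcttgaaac
Gjb6 (chr14:57133612-57133861, minus strand): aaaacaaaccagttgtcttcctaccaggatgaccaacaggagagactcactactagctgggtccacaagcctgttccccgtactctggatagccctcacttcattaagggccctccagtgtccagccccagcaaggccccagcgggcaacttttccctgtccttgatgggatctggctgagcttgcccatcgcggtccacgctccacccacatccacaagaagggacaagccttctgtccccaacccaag
Slc1a2 (chr2:102706188-102706437, plus strand): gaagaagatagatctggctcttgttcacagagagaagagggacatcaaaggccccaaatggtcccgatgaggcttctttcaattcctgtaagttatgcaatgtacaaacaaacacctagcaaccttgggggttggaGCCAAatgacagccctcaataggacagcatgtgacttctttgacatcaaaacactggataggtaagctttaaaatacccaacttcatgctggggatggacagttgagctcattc
Kcnj10 (chr1:172340960-172341209, plus strand): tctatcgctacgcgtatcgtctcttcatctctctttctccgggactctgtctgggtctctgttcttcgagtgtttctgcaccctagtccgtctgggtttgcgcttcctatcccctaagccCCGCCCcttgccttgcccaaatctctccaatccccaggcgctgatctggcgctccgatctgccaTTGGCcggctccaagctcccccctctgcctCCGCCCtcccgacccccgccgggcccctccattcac
The Gja1 window held the AP-1 letters, with their first base at -19 from the start. The Slc1a2 window held 1 NFI half-site at -114, the Kcnj10 window 1 at -66 beside GC boxes at -130 and -36, and the Gjb6 window none of the 5. Gja1 and Gjb6, the members whose values over the 10 astrocyte groups followed each other most closely (below), thus shared none of these matches. A match describes letters only.

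All 9 members were among the more abundant transcripts of astrocytes, from Glul, whose median over the 10 groups was 612 FPKM, to Aldh1l1, whose median was 11.2 FPKM. On the FPKM scale, which is per gene length, Slc1a3 followed Glul at 139.97, then Gjb6 at 87.4, Atp1b2 at 81.7, Slc1a2 at 79.2, Gja1 at 61.7, Aqp4 at 51.6 and Kcnj10 at 33.5. Glul stood above all others in every group. Below it the group ranges of neighbours in this order overlapped, and Aldh1l1 was the lowest in every group except WT 6 months, where it stood at 20.1 and Kcnj10 at 18.02. Over the 10 groups the highest level was 1.78 (Aqp4) to 3.35 times (Gja1) the lowest, while within a group the highest library was 1.28 (Glul, Kcnj10) to 1.62 times (Gja1) the lowest, as the median over groups.

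**Figure D1:**
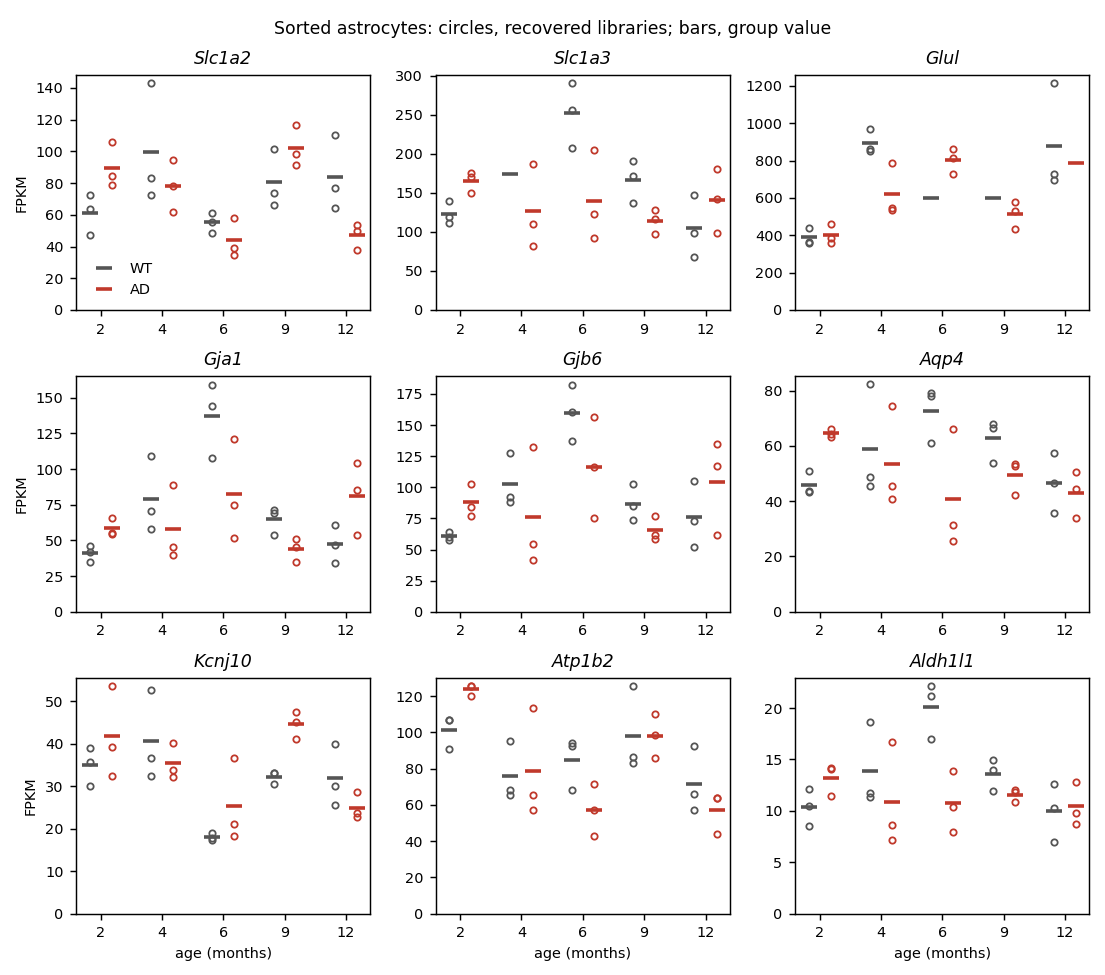
FPKM (y axis, linear, from 0) of each of the 9 genes in WT and AD astrocytes against age in months (x axis). Circles are libraries and bars the authors' group value, which stands alone where single libraries could not be read. In WT the connexins, Slc1a3, Aqp4 and Aldh1l1 peaked at 6 months (the last 3 not above 2 months relative to other astrocyte markers), where Kcnj10 was at its lowest, while in AD mice Slc1a2, Kcnj10 and Atp1b2 were low at 6 and 12 months.

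In WT astrocytes the members moved mostly at 6 months. There 5 of 8 members tested rose and 1 fell, where 47.5% of all genes passed the same test, 23.3% upwards and 24.3% downwards. Scaled to the other astrocyte markers 1 rose and 3 fell (Gja1 upwards, Kcnj10, Atp1b2 and Slc1a2 downwards), and after quantile normalization 3 rose and 2 fell. At 4 months 1 of 8 rose (7.77% of all genes passed, 4.35% upwards) and at 12 months 1 of 9 (19.1%, 9.43% upwards). Scaled to the other astrocyte markers 0 rose and 1 fell at 4 months, and 1 rose and 1 fell at 12 months. At 9 months 0 of 8 passed limma (12.3%), with 1 at an unadjusted p under 0.05. By the fold alone 4, 7, 2 and 2 of 9 members were past the threshold at 4, 6, 9 and 12 months, against 21.2%, 54.2%, 24.2% and 30.4% of all genes. The median log2 fold change of the members was 0.82 at 6 months and 0.53 at 4 months, against 0.00 and 0.01 over all genes. Other astrocyte markers moved with them at 6 months: 13 of 15 tested rose and 0 fell in limma (median 1.21), and their summed level was 3592 FPKM against 1497 at 2 months, while 9 of 9 endothelial markers fell (686 against 2806 FPKM), and 4 of 5 choroid plexus and 5 of 5 ependymal markers rose. Of the oligodendrocyte markers tested 3 of 6 fell and 0 rose (all 13 summed to 13242 against 21548 FPKM). Of the markers of their precursors 5 of 6 fell (5.17 against 23.2 FPKM summed). What part the makeup of the sorted cells had in these changes was not tested.

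Gja1 and Gjb6, which form the gap junctions between astrocytes, gave the largest rise of the 9 genes at 6 months in WT. Gja1 (ENSMUSG00000050953) was 34.9, 41.8 and 45.9 FPKM in the 3 libraries of 2 months and 108, 144 and 159 at 6 months, with no overlap. Its log2 fold change was 1.75 ± 0.30 (SE, adjusted p = 4.02e-05). It stayed at 0.65 (adjusted p = 0.000846) when libraries were scaled to the other astrocyte markers. Gjb6 (ENSMUSG00000040055) was 57.6, 60.03 and 63.8 FPKM at 2 months and 137, 161 and 182 at 6 months, a log2 fold change of 1.41 ± 0.33 (adjusted p = 0.00086). Relative to the other markers Gjb6 was 0.31 higher and no longer past the test (adjusted p = 0.128). At 4 and 9 months both genes also lay above 2 months in every library, without passing the test (Gja1 at 4 months 0.92 ± 0.30, adjusted p = 0.0531), and at 12 months Gja1 was back at 34.4, 46.6 and 60.8 FPKM and Gjb6 at 51.7, 73.0 and 105.

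The 2 connexins kept a nearly fixed proportion. Gja1 ran at 0.618 to 0.858 of the FPKM of Gjb6 in the 10 astrocyte groups, although each gene varied more than 2-fold. Their correlation on the log2 scale was 0.98 over 10 groups, 0.94 over 30 libraries and 0.92 after group means were taken away. These points share libraries and the astrocyte content of each sort, and the values are a description. Among 7456 genes that reached 5 FPKM in an astrocyte group, the 3 most like Gja1 were Pdpn (0.98), the membrane glycoprotein podoplanin, Gjb6 (0.98) and Arl6ip6 (0.98), and those most like Gjb6 were Arl6ip6 (0.99), Gja1 and Tmem129 (0.98).

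The 2 glutamate transporters parted at 6 months. Slc1a3 (ENSMUSG00000005360), which clears glutamate in development and in the cerebellum, was 112, 119 and 140 FPKM at 2 months in WT and 208, 257 and 290 at 6 months. It rose by 1.04 ± 0.30 on the log2 scale (adjusted p = 0.00483), but was level with the other astrocyte markers, at -0.06 relative to them (adjusted p = 0.746), and at 0.61 after quantile normalization (adjusted p = 0.0688). Slc1a2 (ENSMUSG00000005089), which does most of the uptake in the adult forebrain, was 47.0, 63.5 and 72.5 FPKM at 2 months and 48.6, 55.5 and 61.4 at 6 months, a log2 difference of -0.11 ± 0.24 that did not pass the test. Relative to the other markers Slc1a2 was at -1.21 (adjusted p = 1.06e-05). The ratio of Slc1a2 to Slc1a3 was therefore lower at 6 months (0.219, with 0.191 to 0.239 in the libraries) than at 2 months (0.494, 0.421 to 0.611), with no overlap between libraries, and it was 0.801 at 12 months. A ratio within a library does not depend on how libraries were scaled. In AD mice the same ratio was 0.544 at 2 months, 0.315 at 6 months, 0.894 at 9 months and 0.336 at 12 months.

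**Figure D2:**
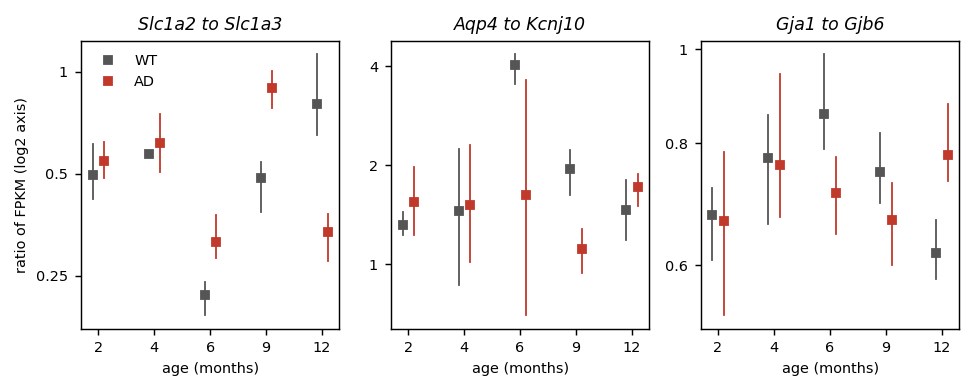
Ratios of the FPKM of paired genes (y axis, log2-spaced) in WT and AD astrocytes against age in months (x axis). Squares are ratios of group values and vertical lines run from the lowest to the highest library. Slc1a2 to Slc1a3 was lowest at WT 6 months (0.219), Aqp4 to Kcnj10 was highest there (4.04, against 1.11 to 1.95 elsewhere), and Gja1 to Gjb6 stayed between 0.618 and 0.858.

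Aqp4 and Kcnj10, which share the perivascular endfoot membrane, parted at 6 months in WT. Kcnj10 (ENSMUSG00000044708) was 30.1, 35.6 and 39.0 FPKM at 2 months and 17.3, 17.9 and 18.9 at 6 months, with no overlap. It fell by 0.92 ± 0.22 (adjusted p = 0.000974), and by more relative to the other astrocyte markers (-2.02, adjusted p = 3.27e-05). Aqp4 (ENSMUSG00000024411) was 43.5, 43.8 and 50.8 FPKM at 2 months and 60.9, 78.2 and 79.0 at 6 months. It rose by 0.67 ± 0.27 (adjusted p = 0.0329), but lay below the other markers (-0.43 relative to them, adjusted p = 0.0152). It was at 0.26 after quantile normalization (adjusted p = 0.401), at 0.55 with other size factors (adjusted p = 0.0859) and missed the threshold with no filter (adjusted p = 0.0642). The call was also lost without any 1 of 4 of the 6 libraries (0.61 to 0.64, adjusted p = 0.0778 to 0.0905). Aqp4 stood at 4.04 times Kcnj10 at 6 months, 3.53 to 4.37 in the libraries, and at 1.32 times at 2 months, 1.23 to 1.45.

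Glul passed the test at 4 and 12 months in WT. Glul (ENSMUSG00000026473), the enzyme that joins glutamate and ammonia, was 360, 363 and 442 FPKM at 2 months in WT, 852, 862 and 970 at 4 months and 695, 728 and 1218 at 12 months. It rose by 1.21 ± 0.20 at 4 months (adjusted p = 0.000977) and by 1.13 ± 0.20 at 12 months (adjusted p = 0.000538), with no overlap at either age. At 12 months it also rose relative to the other astrocyte markers (0.92, adjusted p = 0.0443), while at 4 months it then missed the threshold (0.71, adjusted p = 0.101). Its group values at 6 and 9 months were 601 and 597 FPKM, and no test was made there.

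Aldh1l1 (ENSMUSG00000030088) followed Slc1a3. It was 8.55, 10.5 and 12.1 FPKM at 2 months in WT and 17.0, 21.2 and 22.2 at 6 months, a rise of 0.97 ± 0.25 (adjusted p = 0.00227) that turned to -0.13 (adjusted p = 0.463) relative to the other astrocyte markers. Aldh1l1 and Slc1a3 correlated at 0.93 over 10 groups and 0.94 over 27 libraries, and the gene most like both was Slc1a4, a neutral amino acid transporter of the same family as Slc1a3 (0.97 and 0.98). Atp1b2 (ENSMUSG00000041329), the pump subunit that carries the sorting antigen, was 90.7, 107 and 107 FPKM at 2 months in WT. At 12 months it was 57.0, 65.8 and 92.3, a log2 difference of -0.54 ± 0.23 that did not pass the test (adjusted p = 0.0822). Relative to the other markers Atp1b2 was at -0.93 at 4 months (adjusted p = 0.00368), -1.35 at 6 months (adjusted p = 4.6e-07) and -0.74 at 12 months (adjusted p = 0.00708). At 9 months it was at -0.46 and did not pass (adjusted p = 0.0843).

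In AD astrocytes the members went down more often than up. At 6 months 4 of 9 fell and 1 rose (25.0% of all genes passed, 13.4% downwards and 11.6% upwards), and at 12 months 3 of 8 fell (26.8%, 13.8% downwards). At 4 and 9 months 0 of 9 passed limma (4.42% and 9.13% of all genes), with 2 and 0 at an unadjusted p under 0.05. By the fold alone 2, 6, 1 and 5 of 9 members were past the threshold at 4, 6, 9 and 12 months, against 20.3%, 35.8%, 22.9% and 36.8% of all genes. The other astrocyte markers summed to 2056, 2022, 2143, 1820 and 2242 FPKM from 2 to 12 months in AD mice, and endothelial markers to 1864, 1432, 862, 711 and 475. Oligodendrocyte markers summed to 21032, 18236, 18866, 13508 and 16121 FPKM at these ages. The part of RNA from these other cells in the falls was not tested.

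Slc1a2, Atp1b2 and Kcnj10 were low at both 6 and 12 months in AD mice. Slc1a2 was 78.9, 84.8 and 106 FPKM at 2 months, 34.7, 39.3 and 57.8 at 6 months, 91.1, 98.4 and 116 at 9 months and 37.8, 50.1 and 53.6 at 12 months. The libraries of 6 and 12 months lay below all those of 2 and 9 months. It fell by 1.02 ± 0.24 at 6 months (adjusted p = 0.00222) and by 0.92 ± 0.24 at 12 months (adjusted p = 0.00448), at -0.87 and -0.88 relative to the other astrocyte markers (adjusted p = 0.00608 and 0.00425), and the latter missed the threshold once a trend in gene length was removed (-0.61, adjusted p = 0.0656). Atp1b2 was 120, 125 and 126 FPKM at 2 months, 42.8, 57.2 and 71.7 at 6 months and 44.0, 63.8 and 64.0 at 12 months. It fell by 1.11 ± 0.23 (adjusted p = 0.000695) and 1.12 ± 0.23 (adjusted p = 0.000556), also relative to the other astrocyte markers (-0.96 and -1.08). At 4 and 9 months every library of Atp1b2 also lay below those of 2 months, without passing the test. Relative to the markers it was then at -0.53 and -0.13 (adjusted p = 0.141 and 0.774). Kcnj10 was 32.5, 39.2 and 53.6 FPKM at 2 months, 18.2, 20.98 and 36.6 at 6 months and 22.7, 23.7 and 28.5 at 12 months. It fell by 0.73 ± 0.22 (adjusted p = 0.012) and 0.71 ± 0.22 (adjusted p = 0.0134). Neither call held relative to the other markers (-0.58 and -0.66, adjusted p = 0.312 and 0.256), nor without the 2-month library of 53.6 FPKM (-0.53 and -0.51, adjusted p = 0.0871 and 0.0951), and that of 6 months was also lost without the library of 18.2 FPKM (adjusted p = 0.0821) or that of 20.98 FPKM (adjusted p = 0.0562).

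Glul and Aqp4 also moved at 6 months in AD mice. Glul was 361, 384 and 461 FPKM at 2 months and 729, 813 and 861 at 6 months, a rise of 1.03 ± 0.20 (adjusted p = 0.00068) without overlap, and of 1.18 relative to the other astrocyte markers (adjusted p = 0.0103). Aqp4 was 63.3, 64.4 and 66.0 FPKM at 2 months, the tightest group of the gene, and 25.6, 31.2 and 66.1 at 6 months. It fell by 0.75 ± 0.27 (adjusted p = 0.0298), but 1 of the 3 libraries lay as high as those of 2 months, and the call was lost without any 1 of 5 of the 6 libraries (-0.48 to -0.76, adjusted p = 0.059 to 0.188). It was at -0.60 relative to the other astrocyte markers (adjusted p = 0.0154), and missed the threshold with no filter (adjusted p = 0.063) and with a trend in gene length removed (-0.62, adjusted p = 0.0814). At 12 months Aqp4 did not pass the test, though every library lay below those of 2 months. Relative to the other markers it was then at -0.55 (adjusted p = 0.0205). The connexins, Slc1a3 and Aldh1l1 did not pass the test at any age in AD mice, although Gja1 was at 0.59 relative to the other markers at 6 months (adjusted p = 0.0202).

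**Figure D3:**
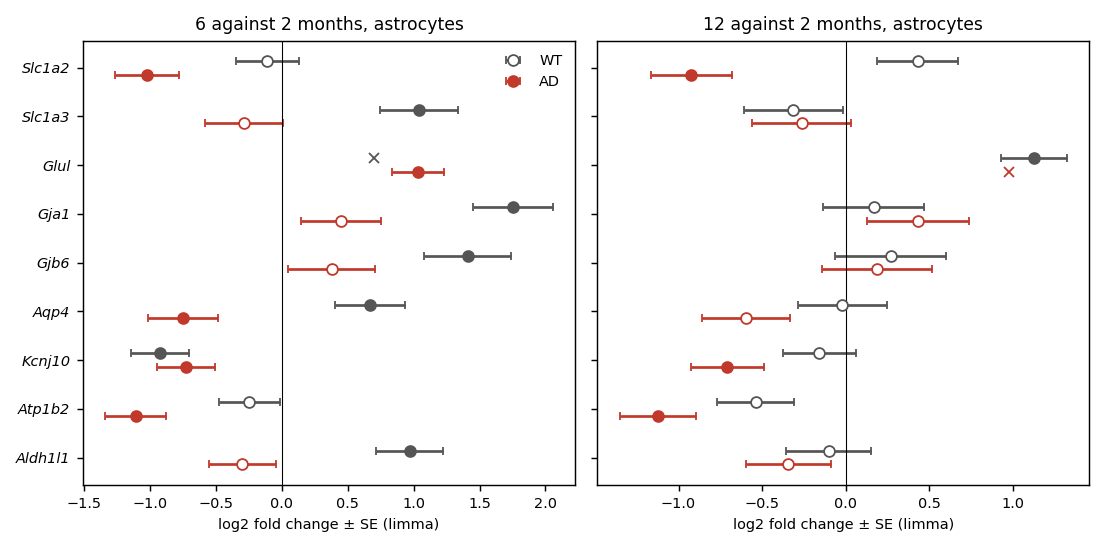
Log2 fold change against 2 months (x axis) of each gene (rows) in WT and AD astrocytes, at 6 months on the left and 12 months on the right, with horizontal lines of 1 SE from limma. Filled circles passed the test, open circles did not, and crosses are group values where no test could be made. At 6 months Gja1 (1.75), Gjb6, Slc1a3, Aldh1l1 and Aqp4 were filled and above 0 in WT, of which Slc1a3, Aldh1l1 and Aqp4 turned below 0 relative to other astrocyte markers, and Slc1a2 (-1.02) and Atp1b2 (-1.11) were filled and below 0 in AD.

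Between the genotypes few members differed. At 6 months 3 of 8 were lower in AD astrocytes (7.76% of all genes passed, 3.88% downwards), and the median over the 8 members was -0.70 against -0.01 over all genes. Aldh1l1 was 7.91, 10.4 and 13.9 FPKM in AD mice against 17.0, 21.2 and 22.2 in WT, and Slc1a3 was 91.5, 122 and 205 against 208, 257 and 290, both without overlap. Aqp4 overlapped. The log2 difference, AD minus WT, was -0.94 ± 0.25 for Aldh1l1 (adjusted p = 0.0242), -0.95 ± 0.27 for Aqp4 (adjusted p = 0.0277) and -0.93 ± 0.30 for Slc1a3 (adjusted p = 0.0487). The other astrocyte markers were lower as well (2143 against 3592 FPKM summed), and relative to them the same genes were at -0.08, -0.09 and -0.07 and passed no test, while Kcnj10 was 1.27 higher in AD mice (adjusted p = 0.00761). After quantile normalization or with no filter 0 members were lower, and Slc1a3 also missed the threshold on FPKM as given (adjusted p = 0.0569) and with other size factors (adjusted p = 0.0592). The calls were lost without any 1 of 4, 4 and 5 of the 6 libraries (adjusted p up to 0.133, 0.163 and 0.227).

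At 12 months 1 of 8 members was lower in AD astrocytes (19.5% of all genes passed, 10.9% downwards). Scaled to the other astrocyte markers 1 was lower and 1 higher, Gja1 (0.63, adjusted p = 0.0275), whose libraries overlapped. With a trend in gene length removed 0 were lower and 1 was higher. Slc1a2 was 37.8, 50.1 and 53.6 FPKM in AD mice and 64.0, 76.8 and 111 in WT, with no overlap. The log2 difference was -0.81 ± 0.24 (adjusted p = 0.0149), and -0.94 relative to the other astrocyte markers (adjusted p = 0.00709). The call was lost without the WT library of 111 FPKM (-0.59, adjusted p = 0.0952) or the AD library of 37.8 FPKM (-0.66, adjusted p = 0.0719), and after a trend in gene length was removed (-0.56, adjusted p = 0.0991). At 2, 4 and 9 months 0 of 9, 8 and 8 members passed limma (0.037%, 1.87% and 0.973% of all genes), with 1 each at an unadjusted p under 0.05. At 2 months, the age against which the others were set, Slc1a2, Slc1a3, Aqp4, Gja1, Gjb6 and Atp1b2 lay higher in every AD library than in every WT library, 6 of 9 members against 9.89% of all genes, with a median over the members of 0.40 against -0.01. Relative to the other astrocyte markers these 6 were at -0.12 to 0.16 and passed no test (adjusted p = 0.533 to 0.952). Those markers summed to 2056 FPKM in AD and 1497 in WT astrocytes of 2 months. By the fold alone 2, 3, 6, 2 and 2 of 9 members were past the threshold from 2 to 12 months, against 12.1%, 20.3%, 20.8%, 14% and 31.2% of all genes.

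The change with age itself differed between the genotypes for 3 members in astrocytes. The comparison of 6 with 2 months gave Aqp4 a change in AD minus that in WT of -1.42 ± 0.38 (adjusted p = 0.0296), and Aldh1l1 one of -1.27 ± 0.36 (adjusted p = 0.0379), where 6.83% of all genes passed. For 12 against 2 months Slc1a2 was at -1.35 ± 0.34 (adjusted p = 0.0258), where 4.28% passed. Slc1a3 (-1.33, adjusted p = 0.0565) and Gja1 (-1.31, adjusted p = 0.0632) at 6 months came close to the threshold. Relative to the other astrocyte markers these differences were -0.17 for Aqp4, -0.02 for Aldh1l1 and -1.10 for Slc1a2 (adjusted p = 0.466, 0.932 and 0.194), and that of Kcnj10 at 6 months was 1.44 (adjusted p = 0.0161). At 6 months 0 members passed after quantile normalization or with no filter and 5 with a trend in gene length removed, all lower, while Slc1a2 at 12 months then missed the threshold (-1.19, adjusted p = 0.0539). None of the 3 calls held without every library: they were lost without any 1 of 7, 8 and 4 of the 12 libraries (adjusted p up to 0.0888, 0.104 and 0.0792).

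Within a group, most members rose and fell together from library to library. After group means were taken away, Slc1a3 correlated with Gja1 at 0.97 and with Aldh1l1 at 0.95 over 27 libraries, and Aqp4 with Gja1 at 0.89 over 30. Kcnj10 stood apart, at -0.30 to 0.06 with the members other than Glul, with which it was at 0.47 over 21 libraries. Across group values instead, Kcnj10 was most like Slc1a2 among the members (0.81 over 10 groups), and most like Rock1, Zmym5 and Ppig (0.96) among all genes compared, while Slc1a2 was most like Fam107a (0.95), mt-Nd6 (0.95) and Psd2 (0.94). Atp1b2 was most like Abat (0.95), which breaks down GABA, Aqp4 most like Pfkm (0.95), and Glul most like Gps2 (0.95). These are descriptions over points that share libraries and cell content.

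Other genes of the same pathways were counted from lists. Of 12 tested genes of glutamate, GABA and glutamine handling, 3 rose and 3 fell at 6 months in WT astrocytes, 0 rose and 2 fell at 12 months, and 0 were higher and 1 lower in AD mice at 12 months, where 47.5%, 19.1% and 19.5% of all genes passed. Of 12 genes listed for potassium channels, the sodium pump and other ion transport 6 rose and 1 fell at 6 months and 2 rose at 12 months. The 6 held Slc9a3r1, a scaffold protein that is neither channel nor pump. Of 8 listed genes of other connexins, pannexins and their partners 1 rose and 5 fell at 6 months, with a median of -0.68 for the list. The 5 held Tjp1, a junction scaffold, and Panx1, which reached 0.5 FPKM only at 2 months. Of 14 water channel and endfoot genes 3 rose and 2 fell at 6 months, and of 13 folate genes 2 rose and 2 fell. At 12 months 0 rose and 2 fell of 13 water channel and endfoot genes, and 0 of 13 folate genes passed. Of the 8 listed connexin genes 1 fell there, Panx1. In AD against WT mice at 12 months 1 of 12 ion transport, 2 of 7 connexin and 1 of 14 water channel and endfoot genes were lower. In these 3 lists 0 were higher, while of 12 folate genes 3 were higher and 0 lower.

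By the rule for named genes, 3 genes of these lists were past the fold in the same direction at all 4 ages in WT. Fxyd1, a regulator of the sodium pump, was 25.2 FPKM at 2 months and 45.3, 84.0, 42.7 and 50.6 at 4, 6, 9 and 12 months, and it rose in limma at each (adjusted p = 0.0274, 2.02e-06, 0.0344 and 0.00318). Fxyd7, of the same family, was 2.22 FPKM at 2 months and 6.20 at 12 months, and it passed the test at 6, 9 and 12 months but not at 4 (adjusted p = 0.136). Panx1, a channel protein, was 0.790 FPKM at 2 months and 0.336, 0.476, 0.286 and 0.205 at the later ages. It passed the filter of 0.5 FPKM only through the 2-month group, so that a fall alone could be found and no test is given.

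In microglia 7 of the 9 members were scarce, and Slc1a3 and Glul were not. Glul had group values of 204 to 361 FPKM and Slc1a3 of 28.2 to 400, while the other 7 lay at 0.203 to 10.8. Without Atp1b2, astrocytes were higher than microglia in 69 of 76 tested pairs of member and group and lower in 0, with 63.2% to 69.5% of all genes passing in either direction in the 10 comparisons. Members under 0.5 FPKM in a microglia group, as Aldh1l1 in all but 2 of the 10, passed the filter through astrocytes and could only be higher there. The paper used Aldh1l1 and Aqp4 among its markers to check the enrichment of astrocytes. For Slc1a2, Aqp4, Gja1, Gjb6, Kcnj10 and Aldh1l1 the log2 difference was 3.47 to 7.85 in every group. In AD 4 months it rested on 1 microglia library rich in astrocyte RNA (described below) and 1 poor in it: without the poor one it was 1.87 for Slc1a2 and Aqp4, 2.02 for Aldh1l1, 2.41 for Gjb6 and 2.62 for Gja1, and without the rich one 6.81, 6.36, 5.07, 6.52 and 7.11 in this order, each past the test. Glul was 0.63 to 1.94 higher in astrocytes in the 7 groups tested, of which the AD 4-month difference was lost without the microglia library of 261 FPKM (0.41, adjusted p = 0.186).

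Slc1a3 was abundant in both cell types. It was 146, 158 and 182 FPKM in WT microglia of 2 months against 112, 119 and 140 in astrocytes of the same age. The log2 difference between astrocytes and microglia was -0.39 to 0.58 (SE 0.51) and passed no test in 7 of the 9 groups tested. It was higher in astrocytes only against WT 12-month (1.82 ± 0.56, adjusted p = 0.00406) and AD 4-month microglia (1.86 ± 0.56, adjusted p = 0.00375), the groups with 2 libraries, and the latter call was lost without the microglia library of 25.4 FPKM (1.49, adjusted p = 0.074). At WT 4 months, where no test was made, the group values were 174 FPKM in astrocytes and 400 in microglia. Over the 28 microglia libraries Slc1a3 did not follow the other astrocyte markers (correlation of 0.06 with their mean log2 level), nor did Glul (-0.04), while Gja1 (0.96), Aqp4 (0.91), Gjb6 (0.91), Slc1a2 (0.90), Atp1b2 (0.88) and Aldh1l1 (0.87) did and Kcnj10 lay between (0.49). The genes most like Slc1a3 over these libraries were Ints10 (0.74), M1ap (0.72) and Vis1 (0.72).

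**Figure D4:**
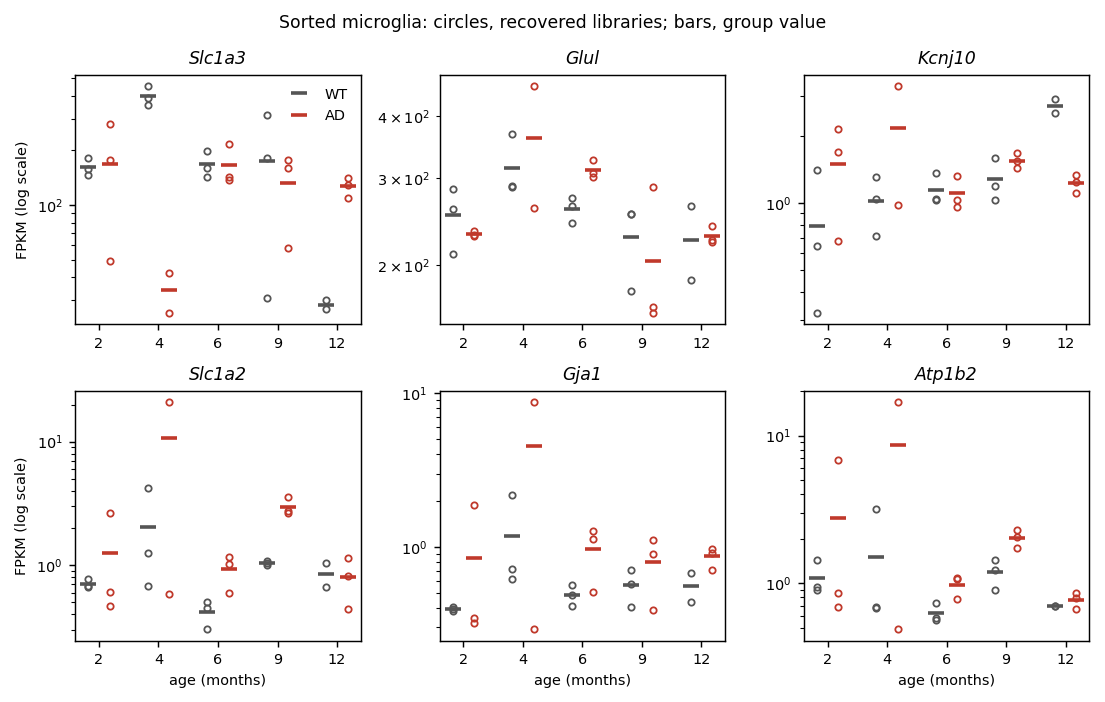
FPKM (y axis, logarithmic) of 6 of the genes in WT and AD microglia against age in months (x axis). Circles are libraries and bars the authors' group value. Slc1a3 ranged from 25.4 to 455 FPKM between libraries and Glul from 160 to 461, while 1 library of AD 4-month microglia lay far above the rest for Slc1a2 (20.9), Gja1 (8.75) and Atp1b2 (16.9).

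Libraries of microglia varied in how much astrocyte RNA they held. In AD 4-month microglia all 15 other astrocyte markers that could be read were higher in 1 of the 2 libraries (summed 245 against 13.8 FPKM). The same held for 1 library of WT 4-month (78.2 against 19.4 and 25.5) and of AD 2-month microglia (55.4 against 13.8 and 16.5). Members followed: Slc1a2 was 20.9 FPKM in that AD 4-month library and 0.583 in the other, Aqp4 14.05 and 0.527, and Gja1 8.75 and 0.291. Limma called none of these 3 members by age or genotype in microglia. Markers of other cells differed between the groups too: endothelial markers summed to 458 FPKM in AD 4-month and 8.71 in WT 12-month microglia, and to at most 107 in the other groups, mural markers to 206 and 5.09, and choroid plexus markers to 5456 and 9.40, nearly all of the latter from 1 gene. Their part in the changes in microglia was not tested.

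Slc1a3 and Kcnj10 were the members that changed in microglia. In WT mice 1 of 8 rose and 1 fell at 12 months (7.25% of all genes passed, 3.74% upwards and 3.51% downwards), and 0 of 8, 7 and 8 passed limma at 4, 6 and 9 months (2.49%, 40.1% and 4.13% of all genes), with 0 at an unadjusted p under 0.05. By the fold alone 5 of 8, 4 of 7, 3 of 8 and 3 of 8 members were past the threshold from 4 to 12 months, against 20.9%, 52.3%, 20.4% and 26.6% of all genes. Aldh1l1 reached 0.5 FPKM in 2 of the 10 microglia groups, Gja1 in 8, and Slc1a2, Aqp4 and Gjb6 in 9. A member that passed the filter through only 1 of the compared groups could be counted only as higher in that group. Slc1a3 was 357, 389 and 455 FPKM at 4 months, 30.8, 183 and 313 at 9 months, and 26.7 and 29.7 in the 2 libraries of 12 months, below all others in WT. It fell by 2.51 ± 0.70 from 2 to 12 months (adjusted p = 0.0282), a call lost without any 1 of the 5 libraries (-2.42 to -2.59, adjusted p = 0.0537 to 0.155). Kcnj10 was 0.323, 0.642 and 1.40 FPKM at 2 months and 2.54 and 2.93 at 12 months. It rose by 1.86 ± 0.47 (adjusted p = 0.0178), lost without the 2-month library of 0.323 FPKM (1.42, adjusted p = 0.0728) or either library of 12 months (1.76 and 1.96, adjusted p = 0.127 and 0.0678).

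In AD microglia 0 of 34 pairs of member and age passed limma, with 5 at an unadjusted p under 0.05 and 16 past the fold alone, where 5.09%, 31.1%, 19.2% and 34.4% of all genes passed at 4, 6, 9 and 12 months. The fold alone gave 8 of 9, 3 of 8, 3 of 9 and 2 of 8 members, against 32.9%, 45.1%, 37.5% and 47.3% of all genes. The limma count was 7 when the AD 4-month library with little astrocyte RNA was left out, so that the library rich in it stood alone, 2 when the rich library was left out and 1 without 1 library of 2 months. Between genotypes Slc1a3 was lower in AD mice at 4 months and higher at 12 months, each 1 of the 9 and 8 members tested (0.346% and 38.0% of all genes, of which 0.115% downwards at 4 months and 16.7% upwards at 12 months). At 4 months it was 25.4 and 42.4 FPKM in AD mice against 357, 389 and 455 in WT (-3.56 ± 0.70, adjusted p = 0.03), and at 12 months 109, 130 and 141 against 26.7 and 29.7 (2.17 ± 0.70, adjusted p = 0.0148). Each of these contrasts held 1 of the groups with 2 libraries. The calls were lost without any 1 of 4 of the 5 libraries at 4 months (adjusted p = 0.0627 to 0.106), and without either WT library at 12 months (adjusted p = 0.0773 and 0.0617). At 2, 6 and 9 months 0 of 8, 8 and 9 members passed limma (0.0475%, 1.35% and 2.86% of all genes), with 1, 0 and 0 at an unadjusted p under 0.05. By the fold alone 6 of 8, 8 of 9, 4 of 8, 4 of 9 and 5 of 8 members were past the threshold from 2 to 12 months, against 14.8%, 25.8%, 14.9%, 19.7% and 52.5% of all genes. The limit that the filter sets, given above for WT microglia, holds for these counts and those with age in AD microglia. The genotypes differed in the change of Kcnj10 from 2 to 12 months (-1.99 ± 0.63, adjusted p = 0.0271, where 20.9% of all genes passed), a call lost without any 1 of 6 of the 11 libraries (adjusted p up to 0.0867).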

How the data were processed

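Astrocytes and microglia of 20 groups were sequenced from SMART-Seq v4 libraries on a NovaSeq. The authors deposited FPKM, 1 column per group, after alignment with HISAT2 by the methods, while the submitters' processing notes name Bowtie 0.12.2 and mm8, so no positions of genes were taken from the files. For their tests the authors used DESeq2 on a count table not analysed here. There were 0 per-sample columns left out.

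The number of fragments per library was read from the deposited FPKM: multiplied by gene length (GENCODE M21, union of exons), a group's value is a sum of whole fragments of its libraries, each at its own scale. Of 35999 genes 35923 had a length, and 33301 of these (92.7%) were used. Of their 475327 recovered values above 0, 99.98% then equalled the deposited value to its last digit. Of 2000 genes given a length wrong by 1 base in each of 2 groups, 0 could be solved. With known fragments put in, 100% of uniquely solved values came out right. The length of Aqp4 was found by search (5082 bases against 6233). The scales were 13.1 to 20.3 M fragments for microglia and 17.8 to 22.8 M for astrocytes, and precision at under 0.5 FPKM is limited by few fragments. Recovered libraries carry no sample number and cannot be matched to single samples.

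As planned, size factors by the median of ratios scaled the FPKM, 0.1 was added before log2, a gene had to reach 0.5 FPKM in a compared group, and on group values a log2 fold of 0.5 was used alone. After the data were seen, limma 3.58.1 (R 4.3.3, moderated with a trend, 1 fit per cell type and 1 over both) was run on library values the same way and checked on simulated data. Python 3.11.15, NumPy 2.4.6 and pandas 2.3.3 were used. Alternatives were FPKM as given, quantile normalization, other size factors, a pseudocount of 1, no filter, scaling to the mean of the other astrocyte markers, removal of a trend in gene length, and each library left out in turn.

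All 9 members are named. A gene of the related lists is named if past the fold in 1 direction at all 4 ages in WT astrocytes, and for each member the 3 most correlated genes of at least 5 FPKM were taken. Members and lists were chosen with earlier results of these data known. One planned ratio is not reported here, and whole-brain samples were not analysed here.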

Additional observations from a re-analysis of the deposited data

Results flagged for a closer look

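4 changes with age differed between AD and WT mice by a limma test of the difference itself. From 2 to 6 months in astrocytes the change in AD minus that in WT was -1.42 on the log2 scale for Aqp4 (adjusted p = 0.0296) and -1.27 for Aldh1l1 (adjusted p = 0.0379). From 2 to 12 months it was -1.35 for Slc1a2 in astrocytes (adjusted p = 0.0258) and -1.99 for Kcnj10 in microglia (adjusted p = 0.0271), where WT 12-month microglia held 2 libraries. Each was lost without any 1 of several libraries, 7, 8 and 4 of 12 and 6 of 11 in this order. Relative to the other astrocyte markers the astrocyte differences were -0.17, -0.02 and -1.10 (adjusted p = 0.466, 0.932 and 0.194). Quantile normalization and the fit with no filter also lost Aqp4, Aldh1l1 and Kcnj10 (adjusted p = 0.052 to 0.0768), and removal of a trend in gene length lost Slc1a2 (adjusted p = 0.0539).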

How the results depend on the processing

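No paired analysis was possible because the recovered libraries carry no replicate number. Of 107 results of single members past the test, 581 alternatives other than a library left out kept 543, put 35 below the threshold and reversed 3, and 18 of the results lost their call with 1 library left out. Of the 107, 79 were differences between astrocytes and microglia, those of Atp1b2, set by the sort, among them. All calls put below the threshold or reversed lay among the other results, by age or genotype. Of the 18, only Glul and Slc1a3 in AD 4 months were differences between cell types. Reversed were Slc1a3 (-0.061), Aqp4 (-0.43) and Aldh1l1 (-0.13) in WT astrocytes at 6 against 2 months, all when scaled to the other astrocyte markers, which by construction moved the median of all genes down by 1.10.

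Members past the fold alone numbered 15 with age in WT astrocytes, 14 in AD astrocytes, 15 by genotype in astrocytes, 15 and 16 with age in WT and AD microglia and 27 by genotype in microglia, and limma called 8, 8, 4, 2, 0 and 2. By genotype in astrocytes the fold alone gave 9 after quantile normalization and 7 when scaled to the markers, and limma gave 1 after quantile normalization and 1 with no filter. With a pseudocount of 1 the fold alone gave 6 with age in WT microglia and 16 by genotype in microglia. In limma, no filter gave 1 with age in WT microglia, and quantile normalization 1 by genotype in microglia. With 1 library left out the limma counts ran from 7 to 9, 5 to 9, 1 to 8, 0 to 2, 0 to 7 and 1 to 11 in the order above, and from 78 to 80 for astrocytes against microglia. Size factors taken only from genes above 1 FPKM moved the median of all genes by -0.119 in WT astrocytes of 6 against 2 months. The causes were not tested. Calls of single members rest on 2 or 3 libraries a group, and 7 members in microglia on few fragments. Where a member passed the filter through only 1 microglia group, the fold alone could go 1 way.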
